A study of Rattus norvegicus with 6 samples.

Results

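The genes described here carry the insulin signal in the liver cell and its FOXO branch: Insr, Irs1, Irs2, Pik3r1, Akt1, Akt2, Foxo1, Foxo3, Sgk1 and Mknk2. They were chosen by name, with earlier results of these data known. Every probe set whose platform annotation gave exactly 1 gene symbol, and that symbol was one of the 10, was taken. This gave 20 probe sets for the 10 genes, of 31042 probe sets and 14217 genes measured. RNA was measured on 6 Affymetrix arrays, 3 from livers of rats given a low-protein diet (5P) and 3 from livers of rats given the control diet (15P). All rats were male Wistar animals bought at 6 weeks of age and about 150 g, kept for 4 days on pellets and trained for 4 days to eat the 15P diet in a daytime window. Each group then ate its diet, 5P or the 15P diet of equal energy, for 8 hours, and livers were taken after 16 hours of starvation, so that both groups were fasted when sampled. No genotype, drug or transgene is named in the labels, and the comparison asks what a feeding period on little protein, followed by a fast, left in liver RNA.

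Insulin binds its receptor, a tyrosine kinase encoded by Insr, which phosphorylates the docking proteins IRS1 and IRS2. These recruit PI3-kinase, whose main regulatory subunit is encoded by Pik3r1, and the lipid it makes activates the kinases AKT1 and AKT2. AKT and the related kinase SGK1 phosphorylate the transcription factors FOXO1 and FOXO3, which then leave the nucleus. In the fasted liver insulin is low, FOXO factors are nuclear and they drive genes of glucose output and also Irs2 and Insr. Mknk2 encodes MNK2, a kinase that docks on the scaffold eIF4G and phosphorylates the cap-binding protein eIF4E. Array intensities report RNA, not phosphorylation, protein level or place in the cell.

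Promoter sequence is shown for the members whose window held a motif read by FOXO factors. RefSeq windows of 250 bases before an annotated transcript start (build GRCr8) were matched by gene ID for 7 of the 10 genes. Mknk2, Foxo3 and Irs2 had no window, so their promoters were not searched. The letters GTAAACA, the core of the FOXO element, and CAAAACAA, the insulin response sequence, were searched on both strands. Matches are in capitals below. Each sequence runs 5′ to 3′ on the strand of its gene, and the 2 motifs did not overlap. Of 33469 RefSeq windows of this length, 3.21% held GTAAACA and 1.94% held CAAAACAA. The Insr window held the FOXO core from base -100 to base -94 before the start, on the opposite strand. Of 3 Sgk1 windows 1 held the insulin response sequence from base -10 to base -3, also on the opposite strand. TGATGNAA, the C/EBP-ATF element read by ATF4, is held by 3.40% of windows and by none of those matched here. A match describes the letters and does not show binding.
Insr, chr12:6128804-6129053, minus strand: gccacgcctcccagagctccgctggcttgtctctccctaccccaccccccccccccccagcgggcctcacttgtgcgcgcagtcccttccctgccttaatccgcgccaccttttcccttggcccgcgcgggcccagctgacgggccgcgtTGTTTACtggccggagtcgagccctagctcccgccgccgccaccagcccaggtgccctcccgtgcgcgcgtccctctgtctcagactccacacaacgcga
Sgk1, chr1:24805571-24805820, minus strand: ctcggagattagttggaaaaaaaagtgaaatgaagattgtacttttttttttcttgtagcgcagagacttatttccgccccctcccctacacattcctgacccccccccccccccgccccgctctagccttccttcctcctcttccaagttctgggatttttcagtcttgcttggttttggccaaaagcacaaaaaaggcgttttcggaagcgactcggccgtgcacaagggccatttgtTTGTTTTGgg

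The kinase gene Mknk2 fell in low-protein livers and alone of the 10 passed the test. Insr, Pik3r1 and Foxo3 were lower with an unadjusted p under 0.05 and did not pass over all genes. Sgk1 and Irs2 were also lower on average, with diets that overlapped. Irs1, Akt1, Akt2 and Foxo1 lay close to no difference. The test was a linear model per gene with moderated variance (limma, two-sided), adjusted by Benjamini-Hochberg over all 14217 genes, with a threshold of 0.05. A gene read by more than 1 probe set is represented by the brightest, by the mean over the 6 arrays. Of the members 1 of 10 passed, and of all genes 0.183%. An unadjusted p under 0.05 was reached by 4 of 10 members, all lower, against 16.3% of all genes, made up of 7.98% lower and 8.34% higher. Groups that did not overlap were found in 2 of 10 members, both lower in 5P. Over all genes this share was 22.9%, made up of 12.8% higher and 10.1% lower. Of the 20 probe sets 1 passed over all probe sets (0.132% of all passed), 5 had an unadjusted p under 0.05 (15.4% of all) and 4 had no overlap (21.6% of all). The median log2 fold change was -0.29 over the members and 0.03 over all genes. Over the 20 probe sets the median was 0.01, beside 0.03 over all probe sets, with 11 higher and 9 lower. The 4 probe sets without overlap were 2 higher and 2 lower. The lower median of the members is therefore that of the brightest probe set of each gene.

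**Figure D1:**
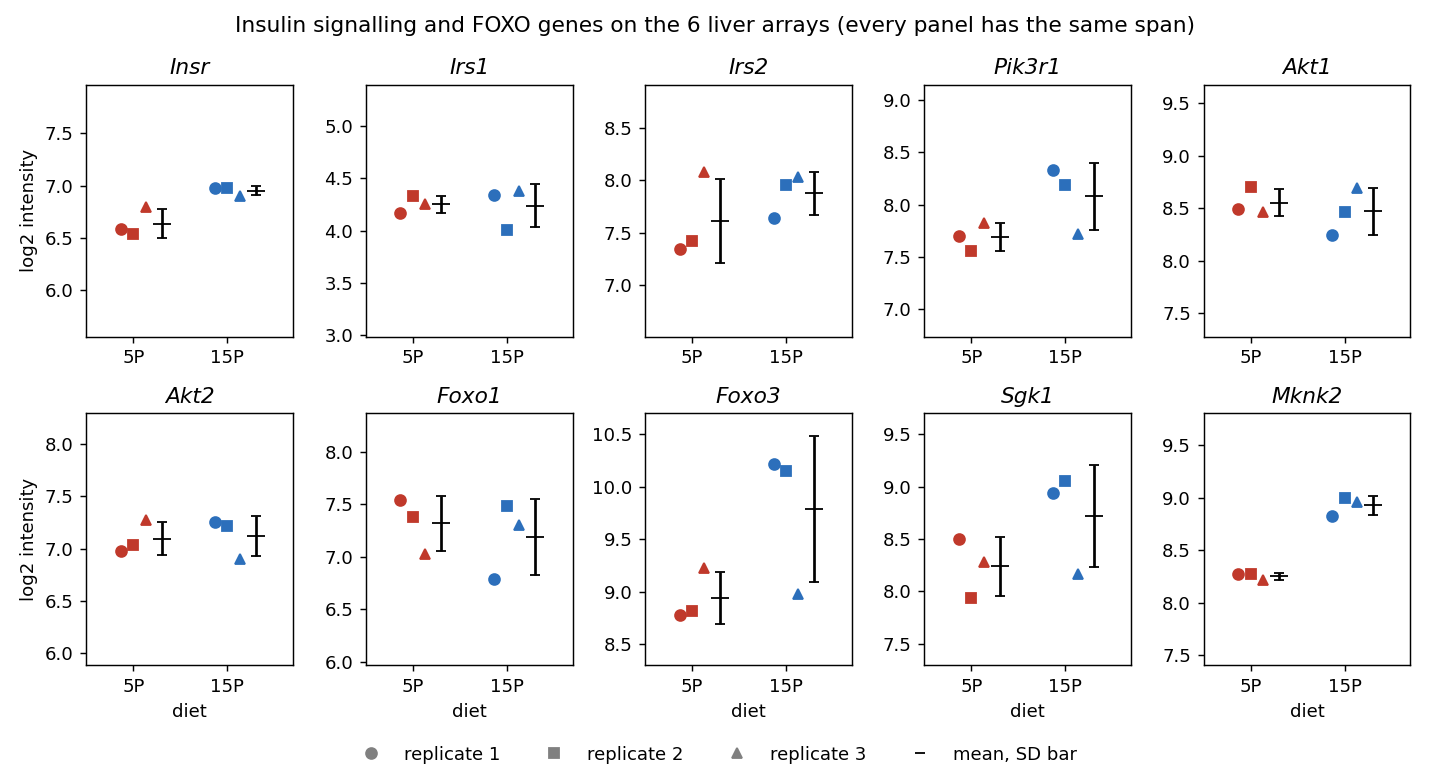
Log2 intensity (vertical axis) of the brightest probe set of each of the 10 genes on the 3 low-protein arrays (5P, red) and the 3 control arrays (15P, blue), with the replicate number as the marker and the mean with an SD bar in black. Mknk2 separates by diet with tight replicates, while control replicate 3 lies among the low-protein arrays for Foxo3, Sgk1 and Pik3r1.

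The arrays were alike in scale, with median intensities over the tested probe sets of 33.7 to 34.2 in 5P and 33.3 to 33.6 in 15P. These medians did not overlap between diets. The 75th percentiles ran from 121.6 to 126.3 in 5P and from 124.5 to 131.2 in 15P. The labels do not state that each array is a separate animal, so p-values measure the spread between these samples. On the leading principal component the low-protein arrays scored 17.34 to 22.59, and among the controls replicate 3 came nearest to them, at -10.11. Control replicate 3 lay inside the low-protein range for 6 of 10 members and for 43.1% of all genes. The calls over all genes were 26, of which 9 rose and 17 fell (34.6% upward); with arrays centred on their 75th percentile the upward share was 47.4%. Hepatocyte markers were bright on every array, with Alb at 14.40 in 5P and 14.40 in 15P (mean log2 intensity). Their summed intensity, over 7 of 8 listed genes, ran from 82518 to 83914 in 5P and from 84600 to 86447 in 15P, without overlap. Of the 7, 3 were higher and 4 lower in 5P, and none passed by limma. Cps1 (-0.23) and Apoa1 (-0.19) were lower without overlap, and Serpina1 (0.05) was higher without overlap. That is 42.9% of the 7, beside 22.9% of all genes. Alb read the same 14.401 on low-protein replicates 1 and 2 and on control replicate 2.

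Red blood cell markers were measured for 4 of 7 listed genes. In 5P 3 of the 4 were higher, as were 57.6% of all genes, and none passed by limma. The summed intensity ran from 4030 to 4294 in 5P and from 2845 to 3100 in 15P. Most of this sum was Hbb, at 11.99 in 5P and 11.51 in 15P (mean log2 intensity, adjusted p = 0.0729 by limma). The sums for macrophage, endothelial, stellate, cholangiocyte, lymphocyte, neutrophil, muscle, adipocyte and pancreas markers overlapped between diets. The part of red blood cell or hepatocyte RNA in the results below was not tested. In whole liver, fewer cells of a type and less RNA per cell cannot be told apart.

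The receptor gene Insr was lower in low-protein livers without overlap. Its brighter probe set (1392043_at) read 6.58, 6.54 and 6.79 on the 5P arrays and 6.97, 6.98 and 6.90 on the 15P arrays (log2 intensity). Every low-protein array lay under every control array. The log2 fold change was -0.31 (SE 0.096, 95% interval -0.54 to -0.09), or 1.24-fold lower, with an adjusted p = 0.18 by limma over all genes. Leaving out 1 array gave -0.39 to -0.26. The second Insr probe set (1369051_at), which is dimmer, read 4.86, 5.23 and 5.33 in 5P and 5.44, 5.24 and 5.25 in 15P, so that the diets overlapped. Its log2 fold change was -0.17 (SE 0.134), in the same direction, and -0.03 without low-protein replicate 1.

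The docking-protein genes did not separate. Irs2, the main insulin docking protein of the fasted liver, read 7.34, 7.42 and 8.07 in 5P and 7.64, 7.95 and 8.03 in 15P. Low-protein replicate 3 was the highest of all 6 arrays, and the other two low-protein arrays were the lowest. The log2 fold change was -0.26 (SE 0.200, interval -0.73 to 0.20). Leaving out low-protein replicate 3 gave -0.50, and leaving out low-protein replicate 1 gave -0.13. Irs1, its paralog, is dim here, at 4.17, 4.33 and 4.25 in 5P and 4.34, 4.00 and 4.37 in 15P. Its log2 fold change was 0.01 (SE 0.118, interval -0.26 to 0.29), and the sign turned with median centring and with quantile normalization (-0.014 and -0.039).

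Pik3r1, the regulatory subunit gene of PI3-kinase, was lower on average, but 1 control array did not follow. The single probe set read 7.70, 7.55 and 7.82 in 5P and 8.33, 8.19 and 7.72 in 15P. Control replicates 1 and 2 lay above all low-protein arrays, and control replicate 3 lay among them. The log2 fold change was -0.39 (SE 0.160, interval -0.76 to -0.02; adjusted p = 0.286 by limma). Without control replicate 3 it was -0.57, and without control replicate 1 it was -0.26.

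The AKT genes showed no difference that passed on any of their 7 probe sets. The brightest Akt1 probe set read 8.49, 8.70 and 8.47 in 5P and 8.25, 8.47 and 8.69 in 15P, a log2 fold change of 0.08 (SE 0.129, interval -0.21 to 0.38). It was -0.03 without control replicate 1. The brightest Akt2 probe set, for the AKT form most tied to insulin action in liver, read 6.98, 7.03 and 7.27 in 5P and 7.26, 7.21 and 6.91 in 15P. Its log2 fold change was -0.03 (SE 0.126, interval -0.32 to 0.26), with a sign that turned with 75th-percentile centring and with quantile normalization (0.020 and 0.014). The diets overlapped for both genes. The dimmest Akt1 probe set (1375178_at) stood apart from its partners: it read 4.45, 4.51 and 4.34 in 5P and 4.09, 4.23 and 4.21 in 15P. These groups did not overlap, with a log2 fold change of 0.26 (SE 0.091) and an adjusted p = 0.236 by limma over all probe sets. The middle Akt1 probe set gave 0.01, and the 3 other Akt2 probe sets gave -0.01, 0.15 and 0.09.

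**Figure D2:**
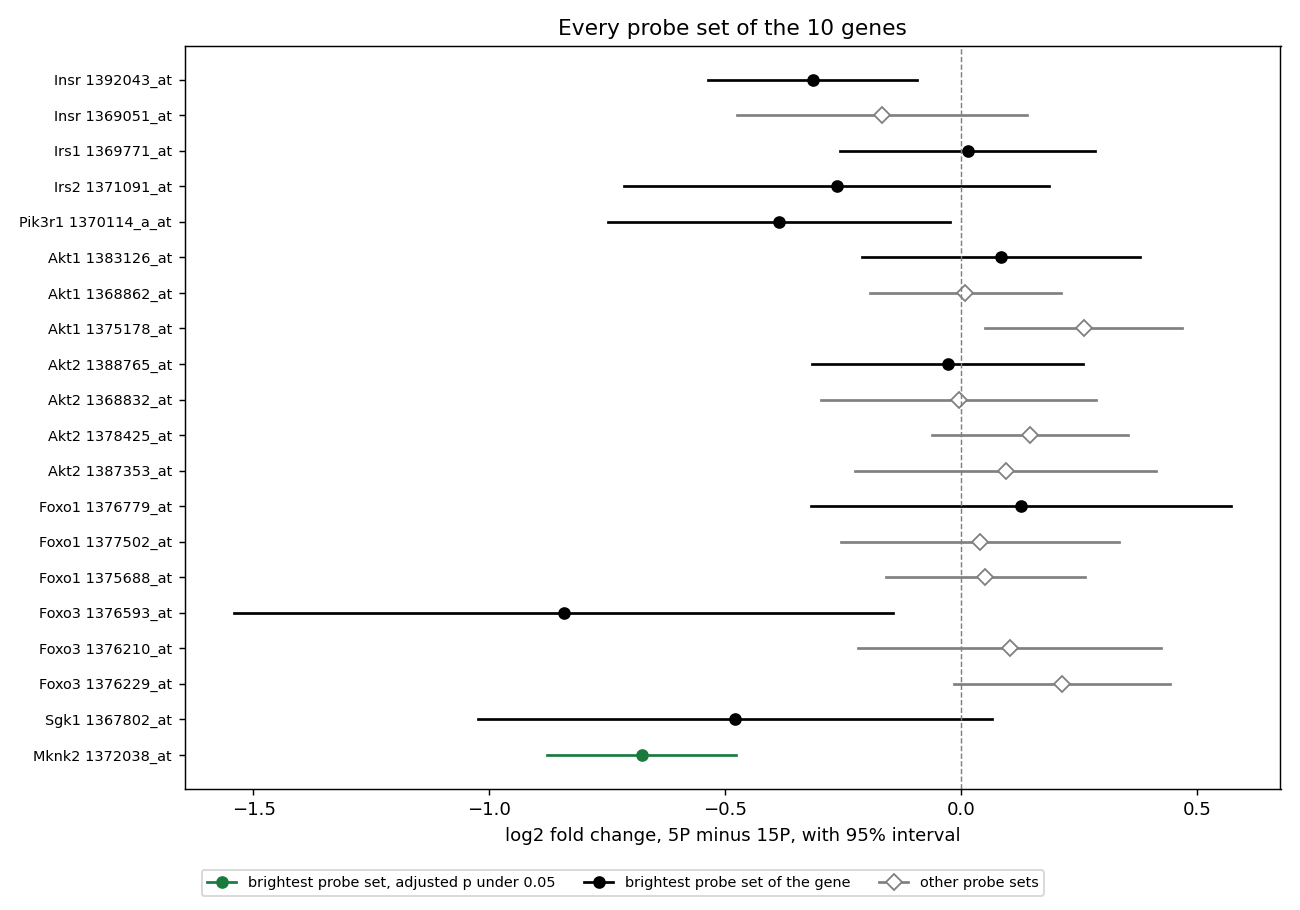
Log2 fold change of 5P minus 15P (horizontal axis, 0 dashed) with its moderated 95% interval for each of the 20 probe sets, named on the vertical axis, filled circles for the brightest probe set of a gene and open diamonds for the others. Mknk2 (green, -0.68) passed over all probe sets, and the brightest Foxo3 probe set (-0.84) lies below 0, with its dimmer partners at 0.10 (-0.05 without low-protein replicate 3) and 0.21.

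The FOXO genes differed from each other in how they read. Foxo1, the FOXO form best known for driving hepatic glucose output, read 7.54, 7.38 and 7.03 in 5P and 6.79, 7.49 and 7.30 in 15P on its brightest probe set. The groups overlapped, and the log2 fold change was 0.13 (SE 0.198, interval -0.33 to 0.58; -0.08 without control replicate 1). The dimmer Foxo1 probe sets gave 0.04 and 0.05. The brightest Foxo3 probe set (1376593_at) read 8.78, 8.81 and 9.23 in 5P and 10.22, 10.15 and 8.98 in 15P. Control replicates 1 and 2 were far above the low-protein arrays, and control replicate 3 lay inside their range. The SD was 0.25 in 5P and 0.70 in 15P. The log2 fold change, the largest of the 10 genes in size, was -0.84 (SE 0.312, interval -1.56 to -0.12), or 1.79-fold lower, and did not pass (adjusted p = 0.241 by limma). Without control replicate 3 it was -1.24 and passed (adjusted p = 0.0387, with 0.0387 to 0.561 over all alternatives). This is the 1 of 18 alternatives in which it did.

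The other Foxo3 probe sets did not share this difference. They are dim, with mean log2 intensities of 3.81 in 5P and 3.71 in 15P for 1376210_at, and 3.81 in 5P and 3.59 in 15P for 1376229_at. Their log2 fold changes were 0.10 (SE 0.141; -0.05 without low-protein replicate 3) and 0.21 (SE 0.100; 0.13 without control replicate 2). For 1376229_at every low-protein array, at 3.87, 3.74 and 3.81, lay above every control array, at 3.66, 3.43 and 3.69. With the 3 probe sets averaged, Foxo3 had a log2 fold change of -0.18. The direction given for Foxo3 is therefore that of its brightest probe set alone.

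Sgk1, the serum- and glucocorticoid-induced kinase that shares FOXO targets with AKT, had the same layout of arrays as Foxo3. It read 8.50, 7.94 and 8.28 in 5P and 8.94, 9.06 and 8.16 in 15P. Control replicates 1 and 2 were the highest arrays, and control replicate 3 lay among the low-protein ones. The log2 fold change was -0.48 (SE 0.243, interval -1.04 to 0.08; adjusted p = 0.373 by limma). It was -0.76 without control replicate 3 and -0.31 without control replicate 2, and it passed in none of the 18 alternatives, where the adjusted p ran from 0.120 to 0.663.

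Mknk2 (gene ID 299618, probe set 1372038_at) fell in low-protein livers. It read 8.273, 8.273 and 8.213 in 5P and 8.830, 8.997 and 8.965 in 15P. All 3 low-protein arrays lay under all 3 control arrays, and control replicate 3 was placed with the other controls. The means were 8.25 ± 0.03 in 5P and 8.93 ± 0.09 in 15P (SD, n = 3 each), a log2 fold change of -0.68 (SE 0.085, interval -0.87 to -0.48) or a 1.60-fold fall. The adjusted p was 0.0354 by limma over all genes and 0.0414 over all probe sets, and by p the gene stood at rank 19 of 14217. The size held between -0.73 and -0.63 in all 18 alternatives, and the call did not. It was lost without any 1 of the 6 arrays (adjusted p = 0.0584 to 0.113) and with 75th-percentile centring (0.0512), and with the replicate number as a block it was 0.142.

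**Figure D3:**
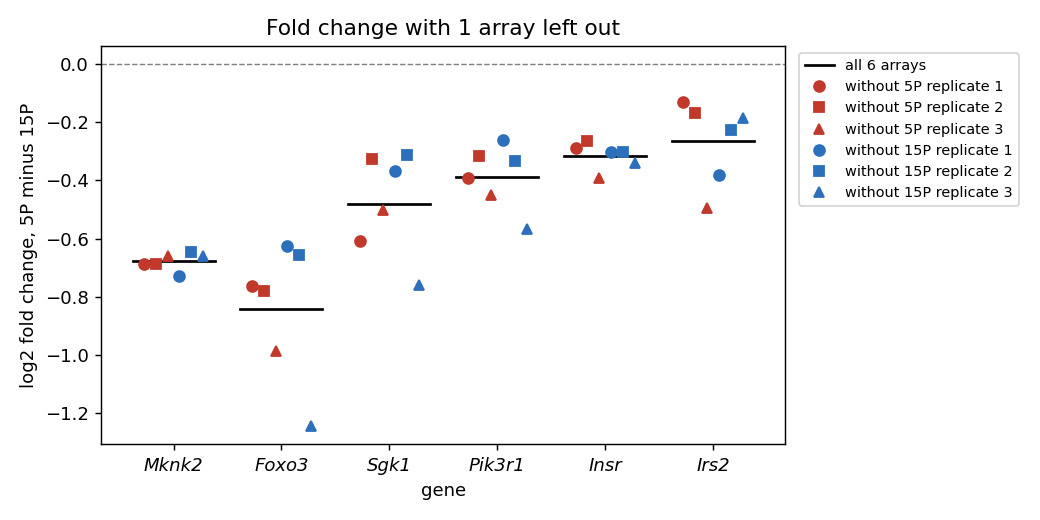
Log2 fold change of 5P minus 15P (vertical axis, 0 dashed) for the 6 members lower by at least 0.26, with all 6 arrays (black line) and with each array left out (red for a low-protein array, blue for a control array). Leaving out any array kept Mknk2 between -0.73 and -0.64, while Foxo3, Sgk1 and Pik3r1 moved most without control replicate 3.

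Close relatives of MNK2 and SGK1 were also read. Of 7 measured genes in this group none passed by limma, and 2 had an unadjusted p under 0.05, both lower without overlap. That is 28.6% of the group, while 16.3% of all genes reached that p and 22.9% did not overlap. Mknk1, which encodes the other MNK kinase, had mean log2 intensities of 6.43 ± 0.05 in 5P and 6.68 ± 0.06 in 15P, which differ by -0.25 on the log2 scale (SE 0.083, adjusted p = 0.204). Nedd4l, a ubiquitin ligase that SGK1 phosphorylates, read 8.18, 8.01 and 7.81 in 5P and 8.52, 8.41 and 8.48 in 15P. Its log2 fold change was -0.47 (SE 0.109, adjusted p = 0.119). The median of the group was 0.002, and -0.10 to 0.05 without 1 array.

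In the mTORC1 and translation arm, through which amino acids and insulin both act on protein synthesis, none of 19 measured genes passed by limma. An unadjusted p under 0.05 was reached by 5 higher and 2 lower genes, or 36.8%, beside 16.3% of all genes. Groups did not overlap in 8 of the 19, 5 higher and 3 lower, or 42.1% beside 22.9% of all genes. The median was 0.03 (0.03 over all genes as well), or -0.08 by the probe set of largest SD. Sesn3, a sestrin gene known as a FOXO target that restrains mTORC1, read 4.16, 4.46 and 4.61 in 5P and 5.26, 5.21 and 5.24 in 15P. The low-protein arrays lay well under the controls, which agreed closely. The log2 fold change was -0.83 (SE 0.122, adjusted p = 0.0593). It passed with median centring (0.0448), quantile normalization (0.0498) and array weights (0.0431), and in none of the other 14 alternatives that could be run. With its probe sets averaged the fold change was -0.41. For Eif4ebp1, which encodes a repressor that holds eIF4E, the value was 0.52 (SE 0.109, adjusted p = 0.0963). Eif4g1, the scaffold gene on which MNK kinases dock, had -0.61 (SE 0.155, adjusted p = 0.138; -0.27 in the alternative nearest 0). The ribosomal protein gene Rps6 had 0.33 (SE 0.090).

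Genes of the PI3-kinase and AKT cascade outside the 10 did not pass in any of 19 cases. By an unadjusted p under 0.05, 1 was higher and 3 were lower, or 21.1% beside 16.3% of all genes. Lower values were found in 13 of 19, beside 6024 of 14217 over all genes, with a median of -0.11. That median shrank to -0.05 when control replicate 1 was left out, to -0.07 when control replicate 2 was left out and to -0.06 under 75th-percentile centring. Gab1, an adaptor that recruits PI3-kinase, had a log2 fold change of -0.31 (SE 0.100). Pik3ca, a catalytic subunit of the kinase, had -0.22 (SE 0.090), Rictor, of the mTORC2 complex that phosphorylates AKT, had -0.21 (SE 0.090), and the glycogen synthase kinase gene Gsk3a had 0.21 (SE 0.085). These 4 were named by a rule that asked for diets without overlap, so that trait is not a result for them. Over the list the diets did not overlap in 8 of the 19, 4 higher and 4 lower, or 42.1%, beside 22.9% of all genes. The mTORC1 arm above and the damping genes below had the same share. The Rictor value ran from -0.27 to -0.03 over the alternatives, and Pik3ca was -0.38 by its probe set of largest SD.

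Genes that damp the insulin signal gave 8 of 19 with an unadjusted p under 0.05, of which 7 were lower and 1 was higher, and none passed by limma. Over all genes 7.98% were lower and 8.34% higher at that p. The higher one was Trib3, a pseudokinase gene induced by ATF4 that can bind AKT. It had mean log2 intensities of 8.16 ± 0.26 in 5P and 7.38 ± 0.22 in 15P, a difference of 0.78 (log2, SE 0.159, adjusted p = 0.0918). Grb14, which encodes an inhibitor of the insulin receptor, had -0.43 (SE 0.126), and Phlpp1, of a phosphatase that acts on AKT, had -0.30 (SE 0.107). The related pseudokinase gene Trib1 had -0.57 (SE 0.153), with -0.07 in the alternative nearest 0. The median of the group was -0.14, with -0.07 where probe sets were averaged and -0.22 with a filter at the 50th percentile of intensity. Groups did not overlap in 8 of the 19, 1 higher and 7 lower, or 42.1% beside 22.9% of all genes.

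Of the FOXO-induced genes of the fasted liver none of 21 measured passed by limma. An unadjusted p under 0.05 was reached by 1, or 4.76%, beside 16.3% of all genes. Groups that did not overlap were found in 4.76% of them, beside 22.9% of all genes. Higher values were found in 14 of 21, or 66.7%, beside 57.6% of all genes, with a median of 0.11. The fold changes of the 21 ran from -0.44 to 0.69 on the log2 scale. Outside this list are Insr, Irs2 and Sesn3, named above as driven by FOXO. These were lower, at -0.31, -0.26 and -0.83, and Insr and Sesn3 did not overlap. The median of the list was -0.04 without control replicate 1, 0.03 without low-protein replicate 1 and 0.06 without control replicate 2. The next 2 genes were picked after their values were seen. Gadd45a, a growth arrest gene, was the 1 below that p, at 9.55, 8.72 and 9.68 in 5P and 8.86, 8.93 and 8.09 in 15P (log2 fold change 0.69, SE 0.295, with overlap). It was 0.42 without control replicate 3. Pck1, the phosphoenolpyruvate carboxykinase gene of glucose synthesis, read 13.31, 13.29 and 13.28 in 5P and 13.21, 13.48 and 13.30 in 15P, with a log2 fold change of -0.04 (SE 0.095, interval -0.26 to 0.18; 0.04 without control replicate 2).

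Genes that insulin induces in the liver were lower in 10 of 12 measured cases, beside 6024 of 14217 over all genes. Their median was -0.49 (-0.29 with probe sets averaged). Of the 12, 1 was lower with an adjusted p under 0.05 by limma, as were 0.12% of all genes. That gene was Insig1, which holds SREBP in the endoplasmic reticulum, at -1.82 on the log2 scale (SE 0.131, adjusted p = 0.00533), and it passed in all 18 alternatives. By an unadjusted p under 0.05, 6 were lower and 1 was higher, or 58.3% of the 12. Over all genes 16.3% reached that p, made up of 7.98% lower and 8.34% higher. The lipase gene Pnpla3 had -2.24 (SE 0.366, adjusted p = 0.0623 by limma). It passed without control replicate 2 (0.00741), and it was -1.62 with log2(value + 16). The fatty acid synthase gene Fasn had -1.77 (SE 0.475, adjusted p = 0.153 by limma), and -2.22 to -1.22 without 1 array. Ppp1r3b, a subunit that directs a phosphatase to glycogen, had -0.52 (SE 0.185, and -0.30 without low-protein replicate 3). The 2 higher genes of the 12, named here for their direction, were Me1 at 0.66 (SE 0.249) and Pklr at 0.63 (SE 0.311), both with overlap. Several of these genes also belong to lipid synthesis, on which signals other than insulin act.

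**Figure D4:**
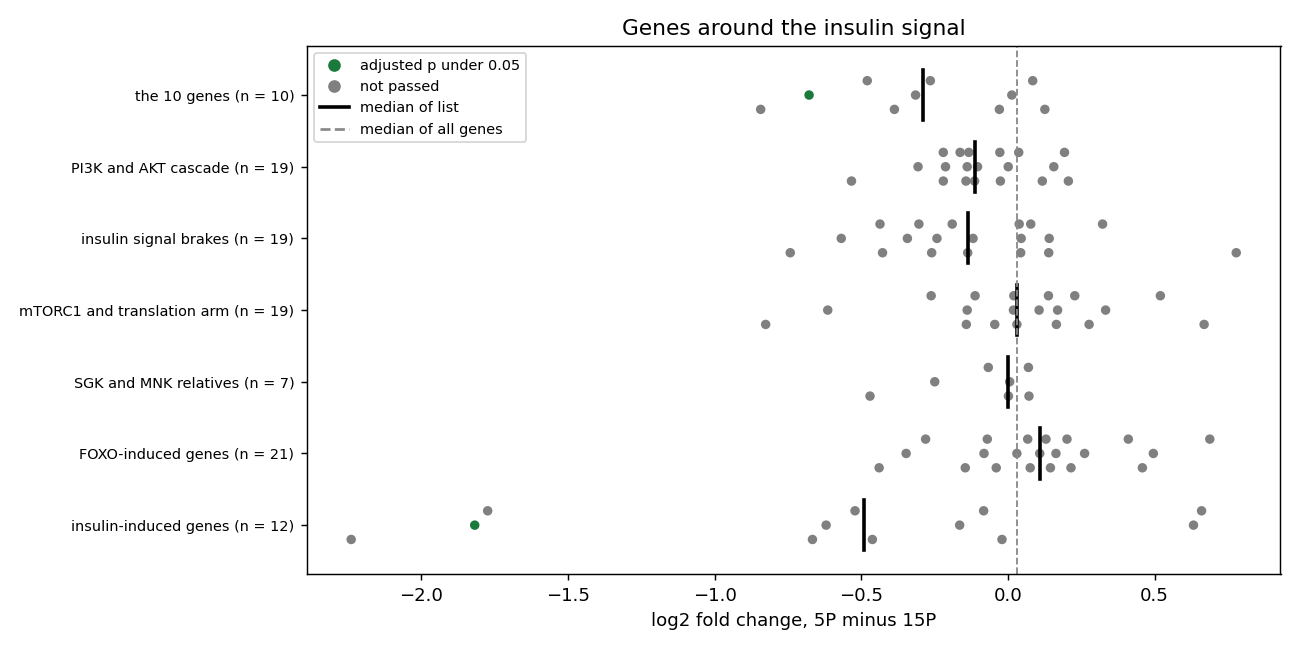
Log2 fold change of 5P minus 15P (horizontal axis) for each measured gene of the 10 members and of 6 lists around the insulin signal, green where the adjusted p was under 0.05, with the list median as a black bar and the median of all genes (0.03) dashed. Mknk2 and Insig1 are the 2 genes that passed, and the medians run from -0.49 for insulin-induced genes to 0.11 for FOXO-induced genes (-0.04 without control replicate 1).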

How the data were processed

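The authors deposited 1 intensity per probe set and array, made with RMA per the submitters' processing notes (background correction, normalization between arrays, summary per probe set). For software, version and genome build: not given in the sources used here. Deposited intensities ran from 3.61 to 21668, which is a linear scale, and every value was turned to log2 for the tests. Of 31099 probe sets, 57 control probe sets were left out, without an intensity filter. Names came from the platform annotation, checked by gene ID against RefSeq (0 symbols changed).

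Low protein was compared with control with limma 3.58.1 (R 4.3.3, lmFit and eBayes, 4 residual degrees of freedom), on all probe sets and on 14217 genes, in log2 units of 5P minus 15P. Figures used matplotlib 3.10.9. The procedure was tested on simulated data: over 31042 probe sets it recovered 98 of 100 changed by 1 and 99 of 100 changed by 2 on the log2 scale, with 9 false calls. The simulated noise was normal and independent between probe sets, with each variance drawn towards the median variance. It held no outlying array, so these rates do not carry over to the noisier genes here. A gene that did not pass may still differ. The members, the lists and the tests were chosen with earlier results of these data known. Named list genes are the up to 4 of smallest p per list with an unadjusted p under 0.05 and groups that did not overlap. Of 176 genes in the pathway and marker lists 151 were measured. The alternatives were prior variance, scaling, intensity filters, array weights, the replicate block, a pseudocount of 16, other choices of probe set and each array left out. Arrays carry no read depth, and their number limits the precision.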

Additional observations from a re-analysis of the deposited data

How the results depend on the processing

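Of 179 fold changes of the 10 genes under up to 18 alternatives, 156 kept their direction and their side of the threshold. Signs turned for genes near 0. Irs1 gave -0.014 with median centring, -0.039 with quantile normalization and -0.105 to 0.082 without 1 array. Akt2 gave 0.020 with 75th-percentile centring, 0.014 with quantile normalization, 0.051 as the mean of its probe sets, 0.094 as its probe set of largest SD and -0.138 to 0.037 without 1 array. Without 1 array Akt1 ran from -0.026 to 0.196 and Foxo1 from -0.075 to 0.274, both turning without control replicate 1. The cause of these turns was not tested.

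The 1 member gene that passed became 0 with 75th-percentile centring and with the replicate block (3 at an unadjusted p in each). Without 1 array the count of member genes was 0 to 1. The 1, without control replicate 3, was Foxo3 (adjusted p = 0.0387 by limma). Mknk2 did not pass with any array left out (0.0584 to 0.113). The 1 member probe set that passed became 0 with 75th-percentile centring, quantile normalization, the block and log2(value + 16). Without 1 array the count of member probe sets was 0 to 1. The 1, without control replicate 3, was the brightest Foxo3 probe set (adjusted p = 0.0319 by limma). The Mknk2 probe set did not pass with any array left out (0.0543 to 0.128). Over all genes 26 calls became 42 with array weights and 14 with the block, and 12 to 54 without 1 array. Over all probe sets 41 calls became 103 with a robust prior, 78 with median centring, 102 with array weights, 6 with the block and 0 with log2(value + 16) (4913 at an unadjusted p under 0.05, limma), and 16 to 109 without 1 array (109 without control replicate 3).

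For the damping genes the median was -0.216 with the filter at the 50th percentile and -0.070 with averaged probe sets. For the mTORC1 arm it was 0.0035 and 0.080 with median and 75th-percentile centring, 0.069 with quantile normalization, 0.069 with the filter at the 50th percentile, 0.013 with averaged probe sets, -0.081 with the probe set of largest SD and 0.015 to 0.094 without 1 array. Its calls were 1 with median centring, with quantile normalization and with array weights. Without 1 array the median ran from -0.101 to 0.051 for SGK and MNK relatives and from -0.038 to 0.152 for FOXO-induced genes, and insulin-induced calls from 1 to 2.

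The replicate numbers are those of the titles and name no shared litter or day. Deviations of same-numbered arrays correlated at -0.09, -0.03 and -0.10, and no array correlated best with its own number, so the numbers were not taken as pairs.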
